A study of Mus musculus with 8 samples.

Results

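Zfp is the mouse symbol for zinc finger protein. The table holds 238 gene names made of Zfp and a number, leaving out Zfp36, which encodes an mRNA decay protein of another family. Genes were selected on the detection p of their probes, which had to be under 0.05 for 1 probe on 4 or more of 8 arrays, and the kept probe with the highest mean intensity stood for the gene. This left 135 Zfp genes among 8146 genes tested. Both measures were taken over all 8 arrays. A gene high in 1 group can still meet the rule through that group, and 11 members were detected on more scrambled than Ypel5 siRNA arrays, 2 on more Ypel5 siRNA arrays. The cells were RAW264.7, a macrophage line of Balb/c origin, and RNA was taken 24 h after transfection with a Ypel5-specific siRNA or with a scrambled control siRNA. Both groups received the transfection reagent HiPerfect. Each group had 4 Illumina bead arrays, and the labels do not name separate cultures for the replicates, and p-values rest on a spread between arrays that may be technical.

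Most proteins of this naming series carry a row of Cys2-His2 zinc fingers, short loops that hold a zinc ion and contact DNA. Many also carry a KRAB domain, which recruits the co-repressor Trim28 and through it the histone methyltransferase Setdb1, and such proteins are known for silencing retroviral elements and for guarding imprinted genes. Others carry a SCAN or BTB domain through which they pair with one another, and some are no DNA-binding repressors at all but act in RNA processing, translation or ubiquitin transfer.

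The targeted gene Ypel5, read by 1 probe, was detected on 0 of the 8 arrays (log2 intensity 4.70 ± 0.0948 for control and 4.79 ± 0.103 for Ypel5 siRNA, SD, n = 4 per group, p = 0.257 in an exact two-sided permutation test). This probe does not check the labels, so each direction below is taken from the library labels alone. Of 8 macrophage markers, 7 were detected on all 8 arrays and Itgam on 1, while fibroblast, B cell and epithelial markers (8 genes) were detected on 0 arrays. Of 3 T cell markers, 2 were detected on 0 arrays and Cd3d on 1. Each array detected between 11249 and 11612 probes, and having 4 arrays a group limits the precision. The detection p-values took far fewer distinct values on both replicate 1 arrays than on any other array, where they took 749 to 762. Genes were selected on these p-values, and whether the coarser steps on the replicate 1 arrays affected the results was not tested.

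Among the 135 Zfp genes, 6 fell after the Ypel5 siRNA and 0 rose (limma, Benjamini-Hochberg adjusted p under 0.05 over all 8146 genes). The number that fell was 1 without scrambled replicate 1 or 2, 3 without scrambled replicate 3 or Ypel5 siRNA replicate 1, 2 or 4, and 0 without both arrays of replicate 1. Over all genes tested, 4.95% passed, with 1.99% that fell and 2.96% that rose, against 4.44% of the Zfp genes that fell. Of the 6, Zfp235 met the detection rule mainly through the scrambled group, with 4 arrays there and 1 in the Ypel5 siRNA group. Among the 115 Zfp genes detected on all 8 arrays, tested with the other genes so detected, 6 fell (Zfp202 and the 5 others, background 2.91%), 0 rose (background 3.77%) and 84 were below 0 (73%, against 50.1%). At an unadjusted p under 0.05, 25 Zfp genes were lower and 4 were higher, where the background was 10.5% lower and 11% higher. The 4 arrays of the Ypel5 siRNA group lay entirely below those of the scrambled group for 12 Zfp genes (background 7.29%) and entirely above for 0 (background 7.92%). The 12 include Zfp235 and Zfp553, each detected on 4 scrambled arrays and 1 Ypel5 siRNA array, and the other 10 were detected on all 8 arrays (background among such genes 7.78%). Of the 135 changes 98 were below 0 (72.6%, against 49.7% of all genes tested). The median change was log2 -0.08, against 0.00104 over all genes tested, and the middle of the distribution ran from log2 -0.19 to 0.00717 between its quartiles, against -0.09 to 0.10 for all genes.

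**Figure D1:**
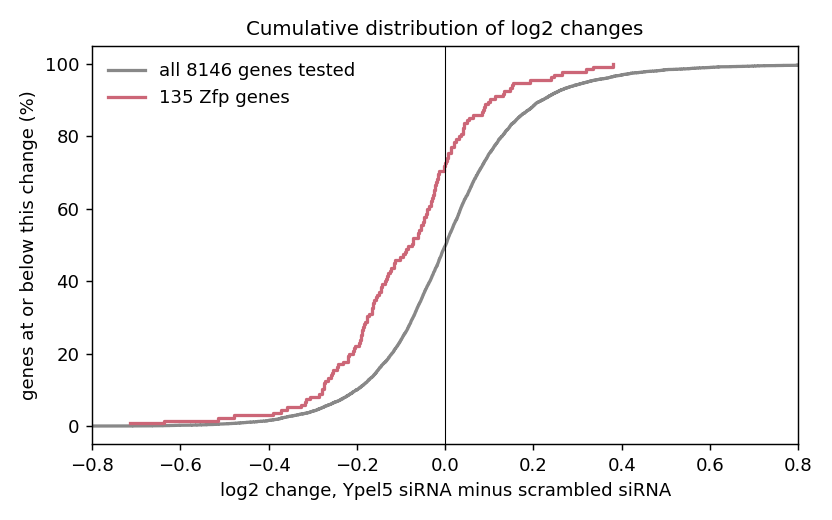
Cumulative share of genes (%) at or below each log2 change (Ypel5 siRNA minus scrambled, shown from -0.8 to 0.8) for the 135 Zfp genes and for all 8146 genes tested. The curve of the Zfp genes lies to the left, with 72.6% of them below 0 against 49.7% of all genes.

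The shift depended in size on how the arrays were scaled. When background-corrected arrays were brought only to a common median, all genes had a median change of log2 0.04 and the Zfp genes log2 -0.02, so that 74 of 135 lay below 0 and 87 below the median of all genes. Without background correction the median of the Zfp genes was log2 -0.04, with 97 below 0. A change below 0 was seen in all 3 of these scalings for 74 genes, the 6 that fell among them. With the common median 1 Zfp gene (Zfp60) passed, and over all genes 30 fell and 205 rose, against 162 and 241.

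In single arrays, the median deviation of the Zfp genes from each gene's own mean was 0.08, 0.03, 0.02 and 0.07 in scrambled replicates 1 to 4 (log2 scale). It was -0.04, -0.02, -0.02 and -0.05 in Ypel5 siRNA replicates 1 to 4. Replicates 1 and 4 of each group lay farthest from 0, and the groups did not overlap. The same median over all genes tested stayed between -0.00241 and 0.00515, which quantile normalization sets near 0. Before normalization, the median probe intensity was 188.4, 194.0, 180.6 and 193.7 on scrambled replicates 1 to 4. On Ypel5 siRNA replicates 1 to 4 it was 225.6, 202.2, 193.1 and 217.3, higher at every replicate number. Ypel5 siRNA replicates 1 and 4 were the brightest arrays and had the lowest Zfp medians. The scrambled arrays did not follow this order, as replicate 3 was the dimmest of them and had their lowest Zfp median. Whether array brightness bears on the Zfp medians was not tested.

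**Figure D2:**
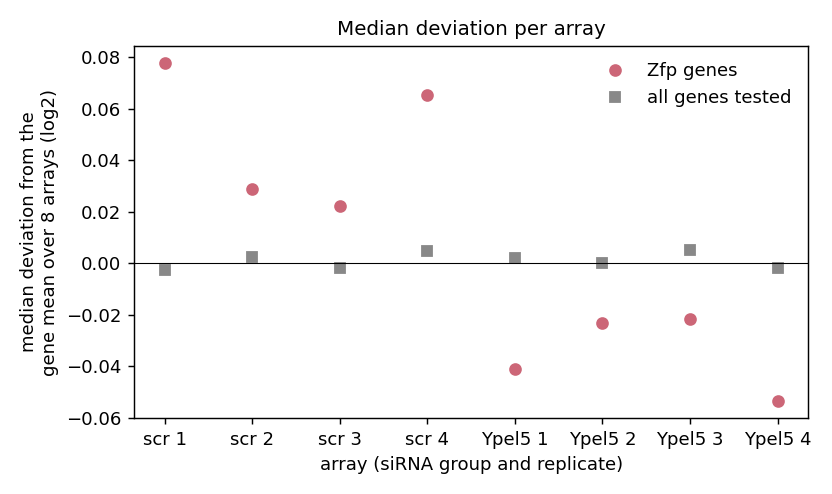
Median deviation (log2) from each gene's mean over 8 arrays, for every array, over the 135 Zfp genes (circles) and all genes tested (squares). The Zfp medians run from 0.02 to 0.08 on scrambled arrays and from -0.05 to -0.02 on Ypel5 siRNA arrays.

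Zfp238, now called Zbtb18, encodes a BTB-domain repressor best known from the developing cerebral cortex. Its log2 intensity was 9.08, 8.99, 9.05 and 9.24 on the scrambled arrays and 8.67, 8.78, 8.70 and 8.73 on the Ypel5 siRNA arrays. All 4 treated arrays lay below all 4 controls, a fall of 0.37 on the log2 scale (SE 0.0625, 1.3-fold, limma adjusted p = 0.0158). Of its 3 detected probes the other pair read log2 -0.55 and log2 -0.11. Zfp238 was the single member of the 6 that passed whichever array was left out, with limma adjusted p between 0.0256 and 0.0476.

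Zfp91 encodes an atypical ubiquitin ligase that acts, in human cells, on the NF-kB-inducing kinase of the non-canonical NF-kB pathway. Its log2 intensity was 10.40, 10.46, 10.33 and 10.44 in the scrambled group and 10.16, 10.15, 10.08 and 10.13 in the Ypel5 siRNA group. The arrays of each group lay close together and apart from the other group, and the gene fell by 0.27 (SE 0.0479, 1.21-fold, limma adjusted p = 0.0184). Its call was lost without scrambled replicate 1, scrambled replicate 2 or Ypel5 siRNA replicate 3, where adjusted p reached 0.0577.

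Zfp187, now Zscan26, encodes a SCAN-domain zinc finger protein. The scrambled arrays read 10.43, 10.45, 10.42 and 10.54 and the Ypel5 siRNA arrays 10.29, 10.20, 10.12 and 10.08. The groups were separate by a small margin, with a fall of 0.29 (SE 0.0598, 1.22-fold, limma adjusted p = 0.0344). It passed when Ypel5 siRNA replicate 1 was left out and with no other array left out, where adjusted p reached 0.0819.

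Zfp87 read 8.41, 8.39, 8.54 and 8.42 on the scrambled arrays and 8.13, 8.19, 7.99 and 8.15 on the Ypel5 siRNA arrays. Scrambled replicate 3 was the highest and Ypel5 siRNA replicate 3 the lowest, and the groups were separate (fall of 0.33, SE 0.0606, 1.25-fold, limma adjusted p = 0.0235). Its other detected probe differed by log2 -0.07 (SE 0.151), and with the mean of both probes the gene did not pass. The call was also lost without any of scrambled replicates 1, 2 and 3 or Ypel5 siRNA replicate 1 (adjusted p up to 0.0599).

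Zfp60, a KRAB zinc finger gene, had the largest change of the 6. Its values were 7.55, 7.81, 7.47 and 7.65 in the scrambled group and 6.91, 7.08, 7.32 and 7.10 in the Ypel5 siRNA group. Ypel5 siRNA replicate 3 came nearest to the controls and did not reach them, and the fall was 0.52 (SE 0.101, 1.43-fold, limma adjusted p = 0.0274). The call held when replicate 3 of either group was left out and was lost without any of the other 6 arrays (adjusted p up to 0.0736).

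Zfp235, another KRAB zinc finger gene, lay close to background. It read 5.82, 5.74, 5.74 and 5.98 on the scrambled arrays, where its probe was detected on 4, and 5.29, 5.52, 5.54 and 5.50 on the Ypel5 siRNA arrays, where it was detected on 1. It fell by 0.36 (SE 0.0792, 1.28-fold, limma adjusted p = 0.0411). Without background correction the change was log2 -0.09 (adjusted p = 0.252), and the call was lost without any 1 of the 8 arrays.

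**Figure D3:**
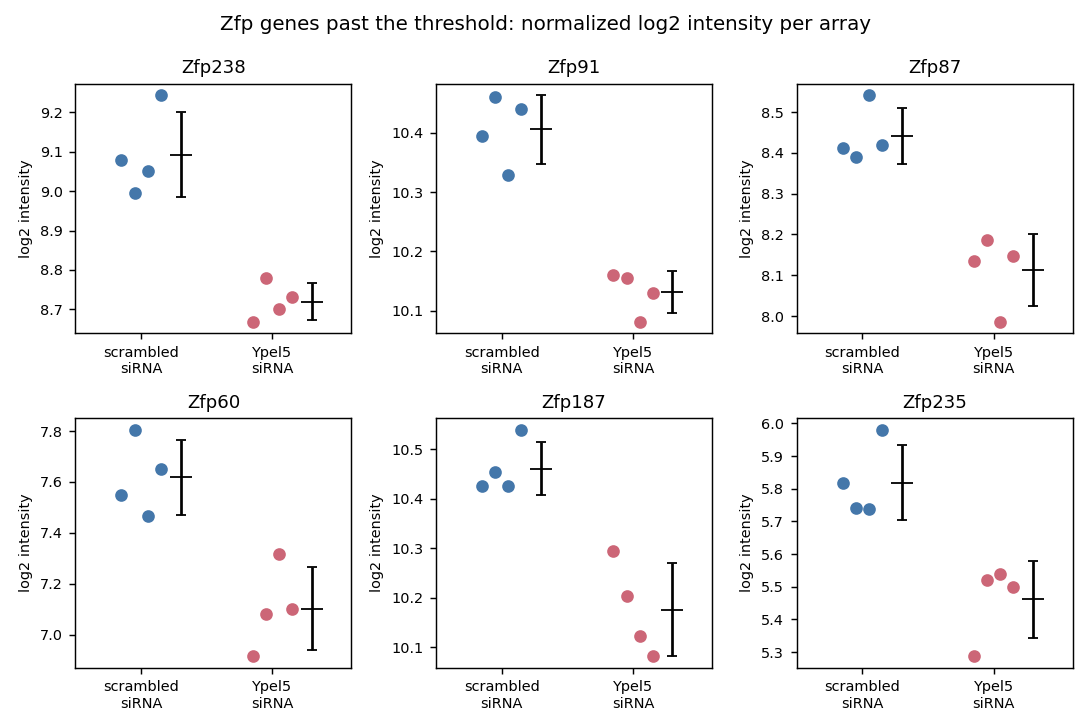
Normalized log2 intensity per array of the 6 Zfp genes past the threshold, by siRNA group (4 arrays each). Bars beside the points give the mean and SD, the vertical axes do not start at 0, and in each panel all Ypel5 siRNA arrays lie below all scrambled arrays.

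The promoter windows of the genes that fell are shown because these members moved in the same direction. They come from RefSeq on GRCm38.p6 and hold 250 bases before and 50 after the annotated start. Capitals mark CCGGAA or its reverse complement, core letters of ETS factors such as GABPA.

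Zfp91, chr19:12796074-12796373, minus strand: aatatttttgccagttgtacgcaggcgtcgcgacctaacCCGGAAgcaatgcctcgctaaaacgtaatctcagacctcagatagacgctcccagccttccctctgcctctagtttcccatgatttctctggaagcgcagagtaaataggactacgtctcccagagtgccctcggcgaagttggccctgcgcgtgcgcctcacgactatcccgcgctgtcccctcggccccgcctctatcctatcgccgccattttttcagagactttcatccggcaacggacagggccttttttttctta
Zfp187 (Zscan26), chr13:21453678-21453977, minus strand: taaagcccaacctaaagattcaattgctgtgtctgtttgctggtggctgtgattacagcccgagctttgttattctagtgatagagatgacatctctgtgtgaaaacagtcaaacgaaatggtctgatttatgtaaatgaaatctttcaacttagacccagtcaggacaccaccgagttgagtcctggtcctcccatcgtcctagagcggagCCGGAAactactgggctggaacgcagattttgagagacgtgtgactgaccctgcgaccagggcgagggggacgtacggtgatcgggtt
Zfp60, chr7:27731159-27731458, plus strand: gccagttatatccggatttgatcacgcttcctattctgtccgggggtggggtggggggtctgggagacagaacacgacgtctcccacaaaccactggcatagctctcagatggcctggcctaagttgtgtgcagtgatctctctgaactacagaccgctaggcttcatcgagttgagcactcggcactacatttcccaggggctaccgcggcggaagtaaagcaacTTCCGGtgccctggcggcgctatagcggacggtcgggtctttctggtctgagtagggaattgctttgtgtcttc
Zfp235, chr7:24132122-24132421, plus strand: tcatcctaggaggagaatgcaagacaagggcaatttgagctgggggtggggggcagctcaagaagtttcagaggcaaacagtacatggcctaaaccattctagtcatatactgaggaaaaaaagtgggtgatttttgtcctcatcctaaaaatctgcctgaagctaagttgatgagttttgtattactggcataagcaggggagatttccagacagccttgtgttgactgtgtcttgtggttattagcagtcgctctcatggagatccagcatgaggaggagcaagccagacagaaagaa

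The first 3 windows hold 1 ETS match each and that of Zfp235 holds 0. Zfp238 has 5 annotated windows, and the files do not say which start was in use, so none is printed. Zfp87 is named only. The windows of Zfp91, Zfp187, Zfp60 and Zfp235 hold 24, 13, 17 and 1 CpG.

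Over 148 windows of 114 members, the ETS letters were present in 37.2%, against 14.9% of all 32851 windows in the table and 29.5% of windows of genes tested here. The median CpG count per window was 18 for the members, 21 for genes tested and 7 for all windows. The GC box GGGCGG was present in 48% of member windows, 63.5% of windows of tested genes and 35.7% of all windows, and CCAAT in 41.2%, 38.3% and 37.4%. In the same order, the AP-1 letters TGANTCA were found in 2.7%, 4.89% and 7.81%. The NRF1 letters were found in 14.2%, 10.8% and 4.6%, and the IRF letters in 2.7%, 3.12% and 3.44%. Staf (ZNF143) letters were found in 2.7% (4 windows), 0.743% and 0.286%. Member windows thus held the GC box, AP-1 and IRF letters less often than windows of tested genes. They held the ETS, CCAAT, NRF1 and Staf letters more often, as a description with no test. Of the 4 printed windows, that of Zfp91 also holds an NRF1 match. Each motif was searched on both strands, and no ETS match in the 4 printed windows overlapped another of these motifs. Members with the ETS letters in a window (52 genes) had a median change of log2 -0.08 and 4 past the threshold. Those without (62 genes) had log2 -0.08 and 1 past it. Of all genes tested, 4.95% passed and 1.99% fell. A gene counted if any of its windows held the letters, so members with more windows had more chances. Zfp238, with 5 windows, is among the 4. A match is a run of letters and not a measured binding site.

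The 8 genes nearest the threshold among those that were lower were Zfp202, Zfp410, Zfp553, Zfp672, Zfp828, Zfp692, Zfp251 and Zfp655, with limma adjusted p from 0.0607 to 0.138. Zfp202, whose human relative represses genes of lipid metabolism, read 7.78, 7.77, 7.99 and 7.93 against 7.64, 7.58, 7.52 and 7.66 (log2 -0.27, SE 0.0665, adjusted p = 0.0607). Zfp410, an activator of the chromatin remodeller gene Chd4, read 8.88, 8.76, 8.63 and 8.72 against 8.50, 8.58, 8.46 and 8.35 (log2 -0.27, adjusted p = 0.0658). For both, the groups did not overlap. Without background correction Zfp410 passed (log2 -0.19, adjusted p = 0.0393) and Zfp202 did not (log2 -0.15, adjusted p = 0.0795). The other probes of Zfp410, also detected on all 8 arrays, read log2 -0.09 each, and the mean of its probes gave log2 -0.15 (adjusted p = 0.288).

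Zfp553 had a mean change of log2 -0.64 (SE 0.181, adjusted p = 0.0873) from scrambled values of 6.57, 6.34, 5.77 and 5.79 and Ypel5 siRNA values of 5.64, 5.36, 5.40 and 5.52. Scrambled replicates 1 and 2 stood well above replicates 3 and 4, and the probe was detected on 1 of the 4 Ypel5 siRNA arrays. Without background correction its change was log2 -0.18. Zfp672 was at log2 -0.21 (adjusted p = 0.0959). Zfp655, which encodes a partner of the signalling protein Vav, was at log2 -0.27 (adjusted p = 0.138). Like Zfp202 and Zfp410, these genes had groups that did not overlap. Zfp828, now Champ1, which helps chromosomes attach to the spindle, was at log2 -0.28 (adjusted p = 0.116). Zfp692 was at log2 -0.24 and Zfp251 at log2 -0.28, and in these last 3 genes the groups overlapped. The other probe of Zfp692, detected on all 8 arrays, was at log2 0.05, and the mean of both gave log2 -0.10 (adjusted p = 0.546).

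The largest change below 0 over all members was that of Zfp764 (log2 -0.71, limma adjusted p = 0.17), named after its values were seen. Its size shrank to log2 -0.22 without background correction.

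Genes above 0 were fewer and none passed (limma, 4 at an unadjusted p under 0.05). Zfp628 had the largest change (log2 0.38, SE 0.123, adjusted p = 0.12), from 6.97, 7.22, 6.73 and 6.76 on scrambled arrays to 7.15, 7.18, 7.42 and 7.46 on Ypel5 siRNA arrays. Scrambled replicate 2 lay inside the range of the treated arrays, and the change was log2 0.17 without background correction. Zfp318, which B cells need to make IgD, was at log2 0.19 (adjusted p = 0.172), with 8.87, 8.73, 8.81 and 8.60 against 8.91, 8.98, 9.05 and 8.84. Zfp386 was at log2 0.26 (adjusted p = 0.189) and Zfp810 at log2 0.34 (adjusted p = 0.211). These groups overlapped in each case.

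Zfp608, a repressor of Rag1 in thymocytes, was at log2 0.32 (SE 0.146, adjusted p = 0.252), with Ypel5 siRNA arrays spread from 7.76 to 8.52. Zfp30, a KRAB gene linked in mice to neutrophil recruitment, was at log2 0.25 (adjusted p = 0.308), with its probe detected on 2 of 4 scrambled and 4 of 4 Ypel5 siRNA arrays. Zfp277, which helps place polycomb proteins at the Ink4a locus, was at log2 0.10 (adjusted p = 0.269) and Zfp710 at log2 0.13 (adjusted p = 0.368).

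Among the genes listed for known roles, those in silencing retroviruses and in chromatin did not pass. Zfp809, the KRAB protein that guides Trim28 to the primer binding site of murine leukaemia virus, read 8.27, 8.48, 8.53 and 8.36 on scrambled and 8.18, 8.14, 8.19 and 8.48 on Ypel5 siRNA arrays (log2 -0.17, SE 0.0904, adjusted p = 0.346). Ypel5 siRNA replicate 4 lay within the control range and the other 3 lay below it. Zfp644, a partner of the H3K9 methyltransferases G9a and GLP, was at log2 -0.09 (adjusted p = 0.435). Zfp592 (log2 -0.08, adjusted p = 0.639) and Zfp687 (log2 -0.32, adjusted p = 0.344), whose human counterparts share a complex with ZMYND8, were also below 0 in mean. Zfp335, part of a histone H3K4 methyltransferase complex, was at log2 -0.10 (adjusted p = 0.706).

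Zfp281, Zfp143, Zfp148, Zfp609 and Zfp64, also listed for known roles, did not pass either. Zfp281, a regulator of pluripotency genes, was at log2 -0.02 (SE 0.0676, adjusted p = 0.897), and Zfp143, an activator at many promoters, at log2 -0.03 (SE 0.129, adjusted p = 0.924). Zfp148 was at log2 0.04 (adjusted p = 0.887), and Zfp609, which binds the cohesin loader Nipbl, at log2 0.04 (adjusted p = 0.945), with its Ypel5 siRNA arrays spread from 5.63 to 6.77. For these 4 genes the sign changed under some alternatives. Zfp64, described as a co-activator of NF-kB in mouse macrophages, read 9.94, 9.97, 9.79 and 9.88 against 9.75, 9.76, 9.80 and 9.69 (log2 -0.15, SE 0.0538, adjusted p = 0.163), and Ypel5 siRNA replicate 3 overlapped the controls. The mean of the Zfp64 probes gave log2 -0.08.

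Of the genes listed for known roles, those that act on RNA, ribosomes or the spindle likewise did not pass. Zfp598, the ubiquitin ligase that senses collided ribosomes, was at log2 -0.31 (SE 0.147, adjusted p = 0.275), with Ypel5 siRNA arrays from 6.34 to 6.94 and scrambled arrays from 6.82 to 7.25. Zfp326, whose human counterpart links transcript elongation and splicing, was at log2 -0.09 (adjusted p = 0.504). Its other probes, both detected on all 8 arrays, read log2 -0.32 and log2 -0.25, and the mean of its probes gave log2 -0.22 (adjusted p = 0.0556). Zfp207, a kinetochore and spindle protein also known as BuGZ, was at log2 -0.05 (SE 0.0465, adjusted p = 0.624). Among the brightest Zfp probes, Zfp263 was at log2 0.05 (adjusted p = 0.749), Zfp639 at log2 0.04 (adjusted p = 0.813) and Zfp259, now Zpr1, at log2 0.01 (adjusted p = 0.943). The signs of Zfp207, Zfp639 and Zfp259 also changed under some alternatives.

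By signal strength, the Zfp probes lay mostly in the lower ranges, with a median log2 intensity of 7.65 against 9.34 for all genes tested. In the dimmest of 4 equal ranges of genes, 56 Zfp genes had a median change of log2 -0.14 with 2 that fell, against log2 0.00944 and 1.47% that fell over all genes there. In the next range 53 Zfp genes had a median of log2 -0.07 with 2 that fell, against 2.36% of all genes there. In the third 19 had log2 -0.06 with 2 that fell, against 2.80%. In the brightest range 7 Zfp genes had a median of log2 0.04, 1 was below 0 and 0 fell, against 1.33%. The medians below 0 thus stood in the 3 lower ranges, while the median of all genes lay between log2 -0.00524 and 0.00944 in every range.

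Changes of the genes that fell were smaller without background correction. Zfp60 went from log2 -0.52 to -0.26 without it, Zfp87 from log2 -0.33 to -0.21 and Zfp91 from log2 -0.27 to -0.24. Of the 6 genes, 5 passed without correction (Zfp238, Zfp91, Zfp87, Zfp60 and Zfp187).

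**Figure D4:**
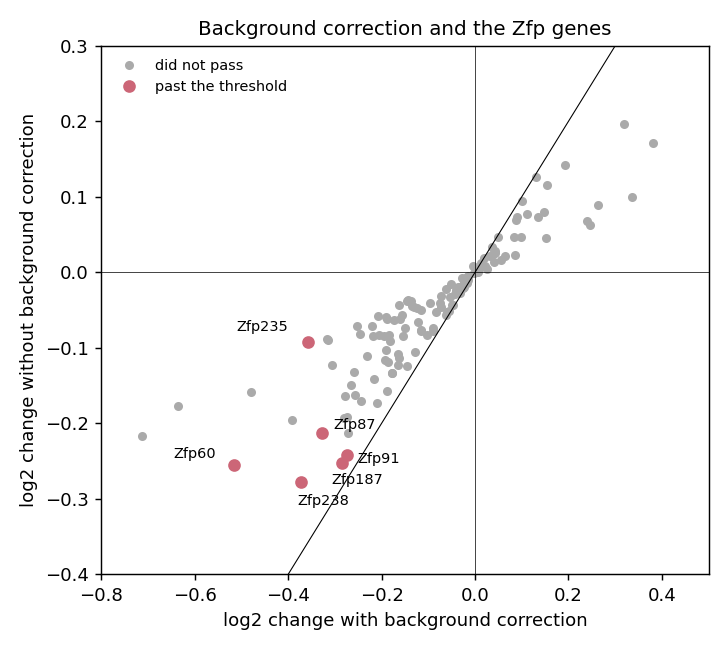
Log2 change (Ypel5 siRNA minus scrambled) of the 135 Zfp genes with background correction (horizontal) and without it (vertical), with the line of equality. Genes past the threshold are named, and Zfp235 shrinks from log2 -0.36 to -0.09 while Zfp91 stays at -0.27 and -0.24.

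Of the members, 25 had several kept probes. In 13 of these every kept probe was below 0, in 3 every kept probe was above 0, and in 9 the probes had opposite signs. Since 72.6% of the members were below 0, more genes with every probe below 0 than above 0 are to be looked for. These counts were not set against other genes with several kept probes. Zfp genes include close relatives, and the probe sequences were not used here, so whether a probe also reads a relative was not tested.

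Many Zfp genes lie in clusters. In the order of protein-coding genes of the RefSeq annotation, 19 pairs of members were direct neighbours. Both genes of the pair were below 0 in 14 pairs and above 0 in 1. Among all 135 members, 98 were below 0 (72.6%), so many pairs below 0 arise without a link between neighbours. The 19 pairs held 34 members, so some genes stood in more than 1 pair. Whether neighbours moved together was not tested. Zfp87 stood between Zfp817 (log2 -0.19, adjusted p = 0.67) and Zfp748 (log2 -0.19, adjusted p = 0.479), and Zfp692 beside Zfp672. Zfp764 (log2 -0.71) lay next to Zfp747 (log2 -0.08), and Zfp553 (log2 -0.64) next to Zfp771 (log2 0.03, its other kept probe log2 -0.21). Neighbours thus did not always share the size or the sign, and the sign of Zfp771 differed between its probes. These neighbours were named for their place beside genes described above.

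A further 13 genes carry a Zfp number in RefSeq but stood under older names in the table, and so were not members. Of these 3 fell and 0 rose, and 11 were below 0. Over all genes tested, 1.99% fell, 2.96% rose and 49.7% were below 0. Zfp420 fell by 0.37 (SE 0.0598, limma adjusted p = 0.0145) and Zfp763 by 0.23 (SE 0.0409, adjusted p = 0.0205). Zfp871 fell by 0.63 (SE 0.12, adjusted p = 0.0256). Without background correction the changes of Zfp420, Zfp763 and Zfp871 were log2 -0.15, log2 -0.14 and log2 -0.25.

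A further list held 29 related genes tested under the names Zscan, Zkscan, Zbtb or Zfp with a trailing letter. Zbtb39 fell (log2 -0.28, limma adjusted p = 0.0349) and Zfp36l1 rose (log2 0.45, adjusted p = 0.00732). Over all genes tested, 1.99% fell and 2.96% rose. Of the 29 genes 20 were below 0, against 49.7% of all genes tested, with a median of log2 -0.07. Zfp36l1 belongs to the mRNA decay family and shares only the name.

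Of 34 partners of KRAB proteins and heterochromatin genes, 25 were tested. Among the 25, 3 fell and 0 rose, where 1.99% of all genes tested fell and 2.96% rose. Their median change was log2 -0.00640. Trim28 itself read log2 12.82 ± 0.0428 and 12.81 ± 0.0243 (SD, n = 4 each), a difference of log2 -0.01 (SE 0.0436, limma adjusted p = 0.897), and Setdb1 was at log2 -0.02 (SE 0.0736, adjusted p = 0.931). The genes that fell were the H3K9 methyltransferases Suv39h1 (log2 -0.23, adjusted p = 0.0216) and Ehmt1 (log2 -0.56, adjusted p = 0.0258, detected on 3 of 4 Ypel5 siRNA arrays, and log2 -0.16 without background correction), and the histone chaperone subunit Rbbp7 (log2 -0.27, adjusted p = 0.0411). Atf7ip, the partner of Setdb1, was at log2 0.37 (adjusted p = 0.0521).

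The remaining 103 Zfp names did not reach the detection rule, and 71 of them were detected on 0 arrays. Just inside the rule, the 3 genes detected on 4 arrays (Zfp13, Zfp689 and Zfp93) had mean intensities from 206.5 to 213.1. Just outside it, 9 genes detected on 3 arrays had mean intensities from 204.4 to 210.4, Zfp42 (Rex1, a pluripotency marker) among them. Not detected on any array were Zfp57, the imprint-guarding KRAB protein, Zfp622, Zfp110 and Zfp369, and Zfp445 was detected on 1. Arrays that do not detect a probe give no statement about whether the gene was expressed or changed.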

How the data were processed

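Gene expression was measured on 8 Illumina bead arrays, 4 per siRNA group. Of the deposited tables, the non-normalized one holds, per the file headers, an intensity and a detection p-value for each of 25697 probes and 8 arrays. The deposited log2 values were normalized by the authors, with a median of 7.636 in every column, and the submitters' processing notes name RMA. A genome build was not given for the array data, while the promoter windows are on GRCm38.p6.

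The neqc function (limma 3.58.1, R 4.3.3, offset 16) corrected the background of the intensities and applied quantile normalization. The 11364 probes detected on at least 4 arrays were collapsed to 8146 genes. Names were updated through RefSeq, except that members kept the name in the file. The two-sided test was limma's moderated one from lmFit and eBayes, with no replicate block, and p-values were adjusted by Benjamini-Hochberg over all genes at a threshold of 0.05. No separate fit was made for the members.

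The members and lists were chosen with earlier results of these data known. Named were genes past the threshold, the 8 others of smallest p in each direction, the 5 brightest and a list of genes with known roles. For Zfp746, which is on that list, no probe was analysed here. No 2 arrays were identical, and replicates of a group correlated at 0.993 to 0.995. The labels state no pairing of arrays by replicate number. Protein classes were not analysed here. Alternatives changed the block, background correction, normalization, filter, probe, names, variance model and arrays.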

Additional observations from a re-analysis of the deposited data

Results flagged for a closer look

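Among 76 groups of 4 arrays (38 named Zfp genes), 4 held an array far from the other 3, where chance gives about 1 in 20. Zfp235 read 5.29 on Ypel5 siRNA replicate 1, against 5.50 to 5.54 on the others of that group. Zfp259 read 11.11 on scrambled replicate 1, against 11.35 to 11.39. Zfp335 read 6.54 on scrambled replicate 2, against 6.95 to 7.01. Zfp809 read 8.48 on Ypel5 siRNA replicate 4, against 8.14 to 8.19.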

How the results depend on the processing

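Directions of the 6 Zfp genes that fell were the same under every alternative run, but the number of Zfp genes past the threshold was not. It was 1 with a common median per array and 0 with no detection filter for other genes (17792 tested). Leaving out both arrays of replicate 1, whose detection p-values took fewer distinct values, gave 0, and leaving out 1 array gave 1 to 5. The number was 1 without scrambled replicate 1 or 2. Some of these counts include Zfp genes other than the 6. Zfp251 and Zfp691 passed without Ypel5 siRNA replicate 3, and Zfp692 passed without scrambled replicate 4. The number of Zfp genes that rose was 0 under all 21 alternatives. The cause of these differences was not tested. Dropping the filter raised the number of genes tested, and leaving out arrays lowered the number of samples.

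Over all genes, 162 fell and 241 rose. These counts became 291 and 379 with no background correction, 291 and 380 with the authors' log2 values, and 342 and 432 with trend and robust variance. They became 30 and 205 with a common median, 32 and 112 with no detection filter, and 13 and 61 without both arrays of replicate 1. Leaving out 1 array gave 49 to 100 and 129 to 172. The median change of the Zfp genes was log2 -0.0427 with no background correction, -0.0428 with the authors' log2 values and -0.0189 with a common median, and -0.0851 to -0.0750 with 1 array left out.

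After each gene's group mean was subtracted, same-numbered arrays of the scrambled and Ypel5 siRNA groups correlated at 0.0387, -0.00353, -0.00145 and 0.18. On the same measure, differently numbered arrays ran from -0.155 to 0.113. Whether replicate numbers mark pairs was not tested. With the replicate block, 0 Zfp genes fell (24 lower and 4 higher at an unadjusted p under 0.05, limma), and 28 of all genes fell and 79 rose. With the replicate block by source name numbers, which differ from the description numbers, 1 Zfp gene (Zfp60) fell, and 37 of all genes fell and 103 rose.

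Signs changed for 7 named genes, none past the threshold. By source name block, Zfp143 was at 0.0102, Zfp148 at -0.00632, Zfp259 at -0.0131 and Zfp609 at -0.0514. With a common median, Zfp143 was at 0.0427, Zfp207 at 0.00344 and Zfp281 at 0.0555. Without both arrays of replicate 1, Zfp143 was at -0.129 with its sign kept, Zfp148 was at -0.00231, Zfp259 at -0.0387, Zfp281 at 0.0188 and Zfp639 at -0.00875. With 1 array left out, Zfp259 ran from -0.0494 to 0.0424, Zfp639 from -0.0169 to 0.0874, Zfp281 from -0.0800 to 0.0128, Zfp148 from -0.0707 to 0.118, Zfp143 from -0.108 to 0.0835, and Zfp609 from -0.209 to 0.171. Low signal limits the dimmest probes, such as Zfp235.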
